A study of Gallus gallus with 2 samples.

Results

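The genes described here encode the protease that the inhibitor DAPT blocks, the proteases that act before it on Notch, and 3 regulators of the pathway. The set holds 9 genes, chosen by name: the γ-secretase subunits APH1A, PSEN2, NCSTN and PSENEN, the sheddases ADAM10 and ADAM17, the Notch regulators NUMB and NUMBL, and the ubiquitin ligase MIB1. All probes with one of these symbols in the deposited annotation were taken, which gave 19 of 43603 probes on the array for 7 of the 9 genes. No probe carried the symbol PSENEN or NUMBL, and these 2 genes were not analysed here. Of the 19 probes, 18 were tested, because every DMSO array or every DAPT array read them well above background. They stood among 31504 tested probes that represent 19044 genes or accessions.

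Isa Brown chick embryos were collected at HH10, a stage on the Hamburger and Hamilton series, and kept in roller culture for 16 hours with DMSO, the solvent, or with 40 µM DAPT. At about HH13 the prosencephalon was dissected, and RNA from pools of 5 embryos was hybridised to single-colour Agilent arrays, 4 for DMSO and 4 for DAPT. No allele or transgene is named for either group, and the DAPT itself was dissolved in DMSO. The dissected piece was a whole region with its overlying tissue, so fewer cells of a type and less RNA per cell cannot be told apart in these values. Each array was counted as 1 replicate. The p-values of a fit that leaves out slide measure the spread between these pools together with the difference between the slides that held the arrays.

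Notch is a cell-surface receptor that is cut in steps after it binds a Delta or Jagged ligand on a neighbouring cell. A sheddase of the ADAM family, mainly ADAM10, removes the outer part, and γ-secretase then cuts within the membrane and frees the intracellular part. That part enters the nucleus, forms a complex there with the DNA-binding protein RBPJ and turns on genes such as HES5 and HEY1. γ-secretase is built from a presenilin, which carries the catalytic site, nicastrin (NCSTN), which takes part in the binding of substrates, an APH1 protein, which acts as a scaffold, and PEN-2 (PSENEN), needed for the presenilin to mature. NUMB is an endocytic adaptor that lowers Notch activity in the cell that receives it, and MIB1 ubiquitinates Delta and Jagged ligands so that the cell that sends the signal can take them up. In the early neural tube this pathway keeps part of the progenitors from becoming neurons.

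Signals are given as log2 of the array's background-corrected signal minus that array's median, so that 0 is the median spot and 1 unit is a doubling. Arrays 1 and 2 of each condition lay on slide 1 and arrays 3 and 4 on slide 2. Between 67.8% and 80.8% of probes were well above background per array, and the first principal component, with 59.5% of the variance, parted the slides. The Notch readout served as a check of the treatment. HES5, a direct Notch target, lay between 1.98 and 2.61 in DMSO and between -5.32 and -2.28 in DAPT, where it was well above background on 1 of 4 arrays. Its log2 fold change was -5.83 (limma adjusted p = 0.00355), a size that is not fixed, since 3 of 4 DAPT signals were not above background. The log2 fold change of HEY1, a second target, was -1.52 (limma adjusted p = 0.0181). DLL1, a Notch ligand, lay 1.18 higher with DAPT, which did not pass without a block (adjusted p = 0.469) and passed with slide as a block (adjusted p = 0.0195). The groups did not overlap for any of these 3 genes (two-sided exact permutation p = 0.0286 for each). This is the smallest p that 4 arrays against 4 can give when the splits ignore slide, as they did here.

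None of the genes for the γ-secretase machinery, the sheddases or the regulators changed with DAPT at the threshold used. In the fit across all probes, 0 of the 18 member probes had an adjusted p under 0.05 (limma, Benjamini-Hochberg), against 0.133% of all tested probes (30 higher and 12 lower). At an unadjusted p under 0.05 the count was also 0 of 18, against 2.28% of all probes. With slide as a block the counts stayed at 0 of 18, against 0.444% by adjusted p and 5.76% by unadjusted p. With array number as a block, 0 of 18 passed by adjusted p, against 0.606%, and 2 of 18 by unadjusted p, against 7.84%. The DAPT arrays lay all on one side of the DMSO arrays for 0 of 18 probes, against 1.71%. With so few calls among all probes, a count of 0 among 18 is near the background and says nothing particular about these genes. The median change was -0.01 log2 over the 18 probes and -0.01 over all probes, and the median size of the change was 0.12 and 0.11. At every probe the change was smaller than the SD of the DMSO or of the DAPT arrays, whichever SD was larger. The brightest probe of each gene is shown array by array.

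**Figure D1:**
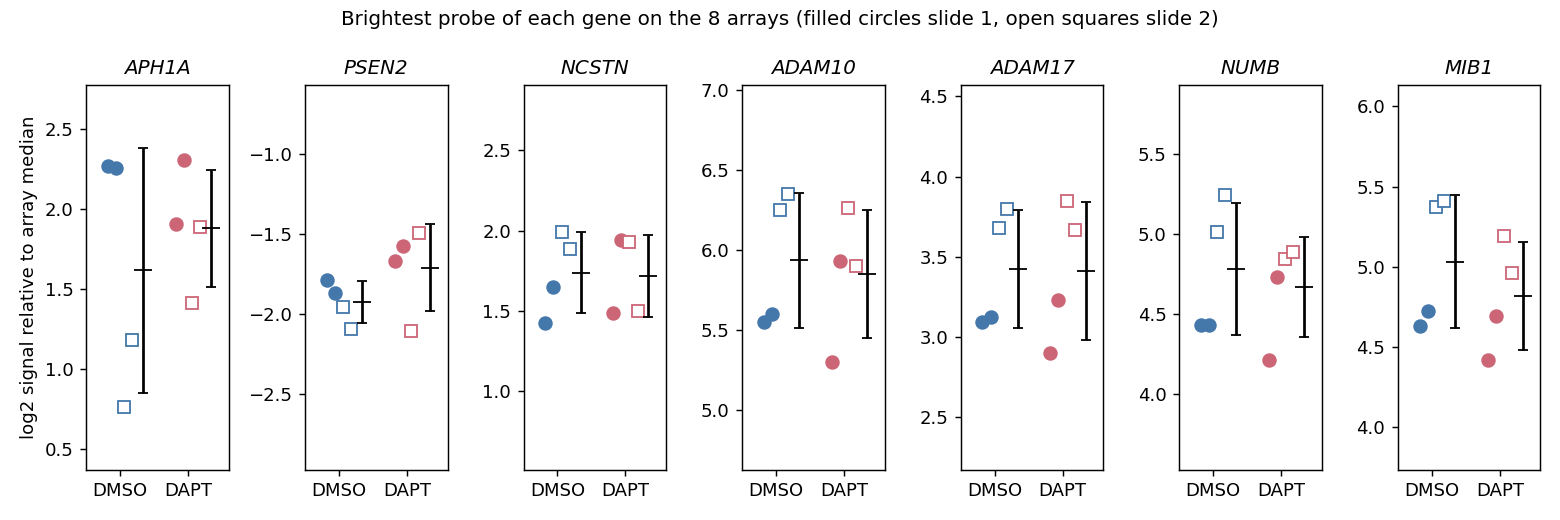
Log2 signal relative to the array median (vertical axis, of the same span in every panel) of the brightest probe of each gene on the 8 arrays, DMSO in blue and DAPT in red, filled circles for slide 1 and open squares for slide 2, with the mean and SD (n = 4) at the right of each group. The DMSO and DAPT arrays overlap in all 7 panels. For NCSTN, ADAM10, ADAM17, NUMB and MIB1 the slide 2 arrays of DMSO lie above its slide 1 arrays.

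ADAM10, the main sheddase for ligand-bound Notch, was read by 4 probes, all well above background on all 8 arrays. Its brightest probe measured 5.55, 5.60, 6.25 and 6.35 in DMSO and 5.30, 5.93, 6.26 and 5.90 in DAPT. The lowest and the second highest of the 8 values were DAPT arrays, and on slide 1 the DAPT arrays lay on either side of the DMSO arrays. The mean was 5.94 ± 0.42 in DMSO and 5.85 ± 0.40 in DAPT (SD, n = 4), which made a difference of -0.09 (SE 0.27, 95% interval -0.68 to 0.51, limma adjusted p = 0.9999). The third probe had the smallest standard error of the 18, with 2.72, 2.59, 2.45 and 2.55 in DMSO and 2.67, 2.50, 2.58 and 2.55 in DAPT. Its interval, which ran from -0.35 to 0.34 without a block, corresponds to a change between 0.785-fold and 1.27-fold. The second probe lay 0.09 and the fourth 0.04 higher with DAPT, so that the 4 probes of ADAM10 spanned -0.09 to 0.09.

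ADAM17, the other sheddase, which also releases growth factors and cytokines from the cell surface, gave 3.10, 3.12, 3.68 and 3.80 in DMSO and 2.90, 3.23, 3.85 and 3.67 in DAPT at its brightest probe. The arrays fell into pairs by slide and not by treatment. The difference was -0.01 (SE 0.26, 95% interval -0.60 to 0.57), with -0.04 on slide 1 and 0.02 on slide 2. With slide as a block the interval narrowed to -0.32 to 0.29, a change between 0.803-fold and 1.22-fold. A second probe lay 0.003 higher with DAPT (95% interval -0.60 to 0.61). The third ADAM17 probe was well above background on 1 DMSO and 1 DAPT array only and was not tested.

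Among the γ-secretase subunits, NCSTN had nearly equal means in both groups. It had 1 probe, with 1.43, 1.65, 1.99 and 1.88 in DMSO and 1.49, 1.94, 1.93 and 1.498 in DAPT. Each group held high and low arrays, and their ranges nearly coincided. The difference was -0.02 (SE 0.20, 95% interval -0.47 to 0.43), of opposite sign on slide 1 (0.17) and slide 2 (-0.22).

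PSEN2, a presenilin and so a catalytic subunit, also had 1 probe, with signals below the median spot. The DMSO arrays gave -1.79, -1.87, -1.96 and -2.09 and the DAPT arrays -1.67, -1.57, -2.10 and -1.49. On 3 of 4 DAPT arrays the signal was above every DMSO array, while the array numbered 3 was below all of them. The difference was 0.22 (SE 0.19, 95% interval -0.20 to 0.63, two-sided exact permutation p = 0.229) and was nearly the same on both slides, 0.21 and 0.23. With slide as a block the interval was -0.13 to 0.56.

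APH1A had 3 probes that gave different answers. The brightest measured 2.27, 2.25, 0.77 and 1.18 in DMSO and 1.91, 2.31, 1.41 and 1.89 in DAPT. On slide 1 the DAPT arrays lay on either side of the DMSO arrays, and on slide 2 both DAPT arrays lay above both DMSO arrays. The difference was 0.26 (SE 0.36, 95% interval -0.54 to 1.06), made of -0.15 on slide 1 and 0.68 on slide 2. The term for a response that differs between slides had an unadjusted p of 0.042 in limma and an adjusted p of 0.9999. By unadjusted p it was the only one of 18 member probes under 0.05, and the share of all probes was not counted. By adjusted p, 0 of all tested probes were called for this term. The second probe measured -0.85, -0.82, -1.92 and -1.09 in DMSO and -0.56, -0.99, -1.05 and -0.41 in DAPT. The groups overlapped, and its difference of 0.42 (SE 0.28, 95% interval -0.19 to 1.04) rested on slide 2, with 0.07 on slide 1 and 0.78 on slide 2. The third probe lay 0.37 lower with DAPT (95% interval -2.45 to 1.70), fell by 2.61 from slide 1 to slide 2, and was above background on 3 of 4 DAPT arrays.

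The name APH1A needs care on this array. The RefSeq gene table for GRCg7b gives the gene identifier of these 3 probes the symbol APH1AL, and gives the symbol APH1A to another locus, read by 1 probe that the deposited annotation leaves under a provisional name. That probe measured -0.58, -0.60, -1.43 and -0.97 in DMSO and -0.47, -0.63, -0.93 and -0.39 in DAPT. Its groups overlapped, with a difference of 0.29 (SE 0.23, 95% interval -0.23 to 0.81), 0.04 on slide 1 and 0.54 on slide 2. It too was not called (limma adjusted p = 0.9999, and 0.9998 with slide as a block).

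NUMB was read by 5 probes, and its brightest measured 4.43, 4.43, 5.01 and 5.24 in DMSO and 4.22, 4.74, 4.84 and 4.89 in DAPT. The DAPT arrays lay within or just below the range of the DMSO arrays. The means were 4.78 ± 0.41 and 4.67 ± 0.31 (SD, n = 4), a difference of -0.11 (SE 0.25, 95% interval -0.66 to 0.44), with 0.04 on slide 1 and -0.26 on slide 2. The second, the third and the fourth probe differed by -0.14, 0.09 and 0.16. The dimmest probe moved most, with -1.16, -0.96, -1.92 and -1.45 in DMSO and -1.54, -1.31, -3.19 and -1.78 in DAPT. It was lower with DAPT on both slides, by -0.36 and -0.79, and the groups still overlapped. Its difference was -0.58 (SE 0.39, 95% interval -1.45 to 0.30, adjusted p = 0.9999), and with slide as a block the interval was -1.17 to 0.01 (unadjusted p = 0.055, adjusted p = 0.896). With array number as a block its unadjusted p was 0.00888 and its adjusted p 0.334. This probe and the second APH1A probe, at an unadjusted p of 0.0399 and an adjusted p of 0.604, were the 2 that passed by unadjusted p under that block.

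MIB1 was lower with DAPT at both of its probes, though within the spread. The brighter one measured 4.63, 4.72, 5.37 and 5.41 in DMSO and 4.42, 4.69, 5.19 and 4.96 in DAPT. On each slide both DAPT arrays lay below the higher DMSO array, and over both slides the groups overlapped. The difference was -0.22 (SE 0.25, 95% interval -0.78 to 0.35), with -0.12 on slide 1 and -0.31 on slide 2, and with slide as a block the interval was -0.52 to 0.09. The second probe differed by -0.13, with -0.33 on slide 1 and 0.07 on slide 2.

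**Figure D2:**
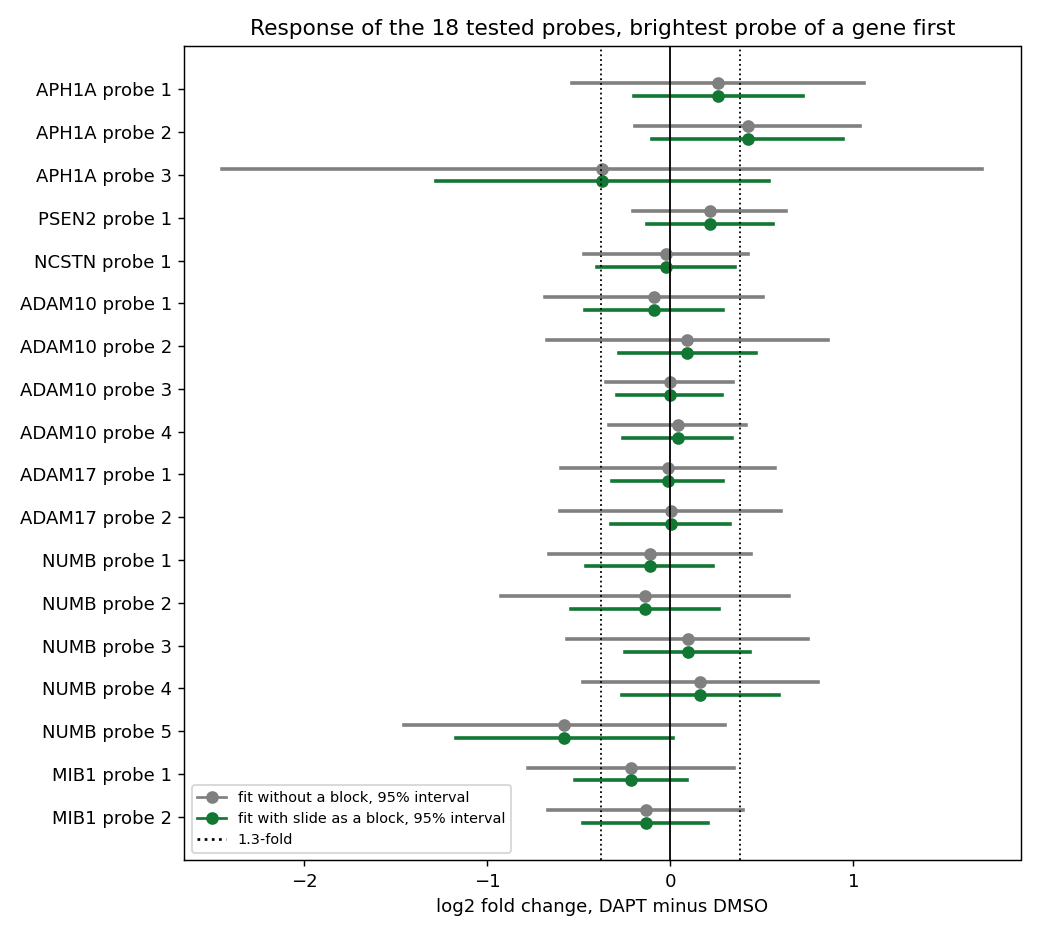
Log2 fold change, DAPT minus DMSO (horizontal axis), of the 18 tested probes, with the 95% interval from limma without a block (grey) and with slide as a block (green), and dotted lines at 1.3-fold in either direction. Both intervals of every probe include 0, and each green interval is narrower than the grey one for the same probe.

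The intervals set how large a response could have gone unseen. Without a block, 3 of 18 intervals lay wholly within 1.5-fold in either direction and 14 of 18 within 2-fold. With slide as a block these counts were 13 and 16 of 18. The interval of the brightest probe lay within 1.5-fold with slide as a block for 6 of the 7 genes, and APH1A was the exception, with 0.871-fold to 1.65-fold. These limits hold for the array's own background-corrected signal. With normexp background correction of the median spot signals, PSEN2 stood at 0.64, ADAM10 at -0.79, NUMB at -0.77 and MIB1 at -0.95 log2, all beyond 1.5-fold and outside the intervals above, while the median of all probes moved by -0.32, and no member was called. Without a block, a change beyond 2-fold could still miss the threshold. DLL1, 1.18 log2 or 2.26-fold higher with DAPT (SE 0.28), was not called in that fit (limma adjusted p = 0.469). With slide as a block it was called (limma adjusted p = 0.0195).

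APH1A and NUMB were also among the genes that the study picked from these arrays by the size of their change, so that a large change at one of their probes is no independent evidence. A change of 1.3-fold or more, with no test, was seen at 2 of 18 member probes, against 7.92% of all tested probes. These were the second APH1A probe (1.34-fold) and the dimmest NUMB probe (0.67-fold). The brightest probes of the same genes stood at 1.199-fold and 0.926-fold, and 0 of the 7 brightest probes reached 1.3-fold. The other probes of NUMB lay between 0.91-fold and 1.12-fold.

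Each slide held 2 DMSO and 2 DAPT arrays, so that the response could be read on each alone. The sign of the change differed between slides for 11 of 18 probes, against 47.3% of all tested probes, and was the same for 7. The 7 included the PSEN2 probe, the dimmest NUMB probe and the brighter MIB1 probe.

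**Figure D3:**
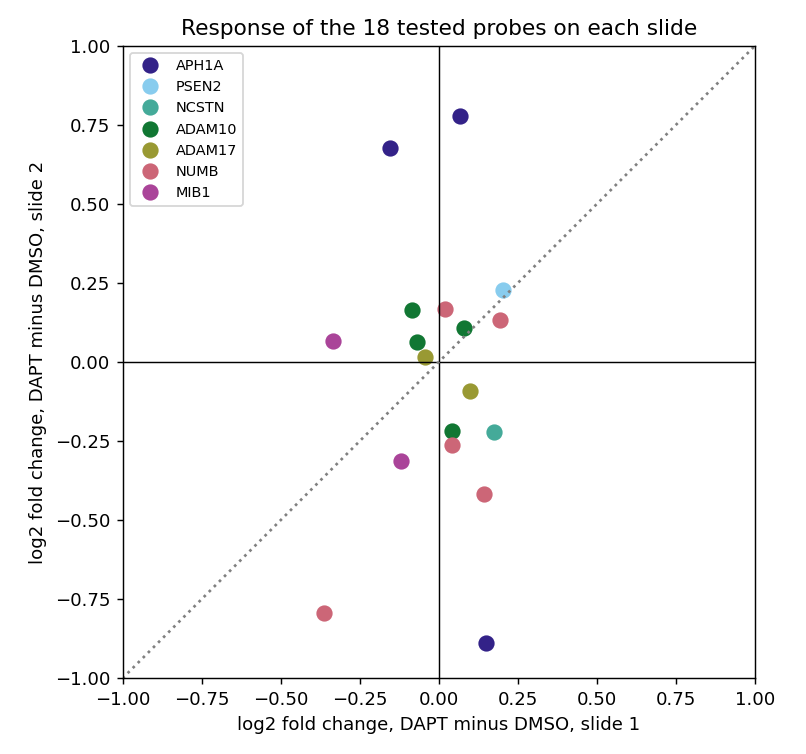
Log2 fold change, DAPT minus DMSO, on slide 1 (horizontal axis) and slide 2 (vertical axis) for the 18 tested probes, coloured by gene, each from 2 arrays against 2, with a dotted line where both are equal. Points lie in all 4 quadrants, the APH1A probes between -0.89 and 0.78 on slide 2, and the PSEN2 probe near the dotted line.

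For most of these probes the slides differed more than the treatments. Slide 2 against slide 1, with treatment in the fit, was called at 13 of 18 member probes (limma adjusted p under 0.05), against 41.3% of all tested probes, and the median size of the slide difference was 0.61 log2 for the members and 0.39 for all probes. The slide difference exceeded the DAPT difference at 16 of 18 probes, the exceptions being the PSEN2 probe and the second APH1A probe. Over all tested probes the median size was likewise larger for the slide difference, 0.39, than for the DAPT difference, 0.11. Probes of one gene moved in opposite directions. For NUMB, the brightest and second probes were 0.54 and 0.91 higher on slide 2, while the other 3 were lower by -0.75, -0.61 and -0.84, and all 5 were called. The 2 brighter ADAM10 probes were 0.59 and 0.91 higher on slide 2 and called, whereas the third and the fourth differed by -0.09 and 0.19 and were not. Both tested ADAM17 probes were higher on slide 2, by 0.66 and 0.67, as were both MIB1 probes, by 0.62 and 0.51. Arrays of slide 1 held 311 to 382 saturated spots and those of slide 2 held 0, none of them at a member, and the part of the scan in the slide difference was not tested.

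**Figure D4:**
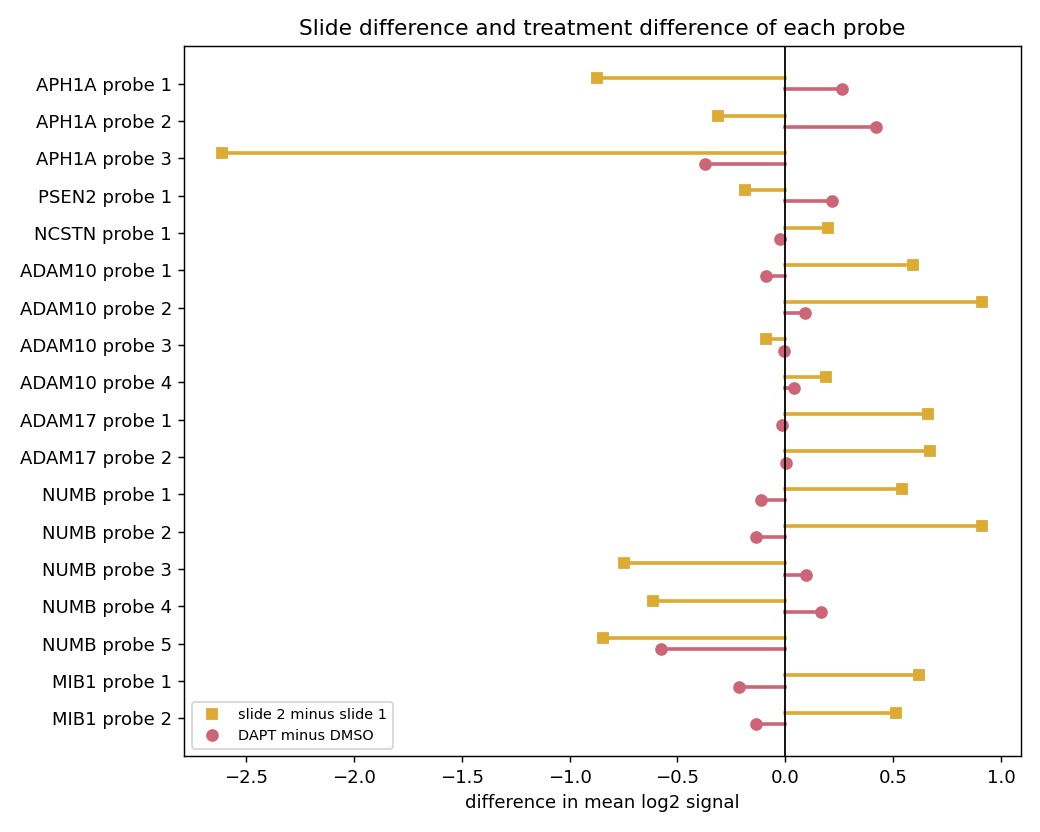
Difference in mean log2 signal (horizontal axis) of each tested probe between slides (slide 2 minus slide 1, yellow squares) and between treatments (DAPT minus DMSO, red circles), brightest probe of a gene first. The yellow markers reach from -2.61 to 0.91 and lie on both sides of 0 for NUMB and ADAM10, while the red ones lie between -0.58 and 0.42.

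Genes next to these in the pathway were read from lists, each gene at its brightest tested probe, where 0.133% of probes were called. Of the other γ-secretase genes, such as APH1B, modulators of the complex and the related signal peptide peptidases, 8 of 10 were tested and 0 called, with a median change of -0.04 log2. Of sheddases and their regulators 15 of 23 were tested, of endocytic genes and ubiquitin ligases 21 of 31, and of γ-secretase substrates 21 of 25, with 0 called in each. In limma 0, 2, 0 and 3 genes of these 4 lists had an unadjusted p under 0.05, against 2.28% of all tested probes. With slide as a block 1 substrate, DLL1, was called, against 0.444% of all tested probes. Of 12 tested genes of the Notch readout, 8 were lower with DAPT and 2 were called, HES5 and HEY1, both lower. An unadjusted p under 0.05 in limma was found for 4 of the 12, against 2.28% of all tested probes. The median over all tested probes was -0.01.

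Among marker lists, the neuron list had calls without a block. Of its 7 tested genes 3 were called, all higher in DAPT. The neurofilament gene NEFM changed by 2.22 ± 0.29 (SE) log2 and the neuronal transcription factors NHLH1 and NHLH2 by 1.83 ± 0.27 and 2.06 ± 0.21. The median was 1.32, with 6 of 7 genes higher in DAPT and TUBB3 lower, at -0.17. With slide as a block 4 of the 7 were called, against 0.444% of all tested probes. The summed linear level of the list was 125 to 162 in DMSO and 210 to 243 in DAPT, in units of the array median. NEFM, NHLH1, NHLH2 and STMN2 of this list were among the upregulated genes that the study reported from these same arrays. The 3 calls without a block, the median and the summed level are therefore no independent evidence. Forebrain neuroepithelium markers had 0 calls among 11 and a median of 0.01, and their summed level was 181 to 313 in DMSO and 184 to 335 in DAPT. Markers of surface ectoderm and placodes (8 tested), neural crest and mesenchyme (9), endothelium (7) and red blood cells (6) had 0 calls without a block. Their medians were 0.05, 0.18, 0.30 and 0.38 log2, with 5 of 8, 8 of 9, 6 of 7 and 6 of 6 genes higher in DAPT. With slide as a block 1 endothelial gene rose, LMO2, which lay 1.05 higher (1.22 on slide 1 and 0.88 on slide 2, limma adjusted p = 0.0802 without and 0.00937 with the block). At an unadjusted p under 0.05 in limma the neuroepithelium list counted 1, the endothelium list 2 and the other 3 lists 0. Over all tested probes the share was 2.28%. The red cell list summed to 5.27 to 505 in DMSO and 7.68 to 469.6 in DAPT. The part of neuron, mesenchyme, endothelium or blood content in the members' values was not tested.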

How the data were processed

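The authors hybridised cyanine 3-labelled RNA to Agilent 4x44K chicken arrays and extracted spots with Agilent Feature Extraction. The deposited array files hold background-corrected intensity, not normalized between arrays, with flags for outliers, saturation and signal well above background. The deposited tables hold the authors' condition means of raw intensity and of log2 signal after a 50th percentile shift. Their fold change score and log2 ratio columns hold the authors' comparison and were not used.

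Here log2 of the processed signal was taken and the median of each array's non-control spots subtracted. Outlier spots were dropped, saturated spots kept and spots of a probe averaged. As a check, the DAPT minus DMSO difference was also computed with outlier spots kept. It matched the difference between the deposited log2 means within 0.001 at 99.97% of 34349 probes. A probe entered the test if every array of DMSO, of DAPT or of both read it well above background. Conditions were compared with limma 3.58.1 (lmFit and eBayes, two-sided, Benjamini-Hochberg over 31504 probes) in R 4.3.3. The main fit had no block, since the study's methods name a fold-change threshold and no block. Single probes were compared with exact permutation tests over 70 splits, which did not keep the layout of the slides. The code was tested on simulated data. Figures were drawn with matplotlib 3.10.9 in Python 3.11.15.

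All members were named, with every probe of the symbol, a gene standing at its tested probe with the highest mean signal. The members, lists and tests were chosen with earlier results of these data known. The labels give 1 sample per condition, with 4 array files each. Array number and slide were read from array names. Same-numbered DMSO and DAPT arrays deviated together (r = 0.679, 0.569, 0.767 and 0.505 across probes), but they also shared a slide. With slide means removed r was 0.0489 on slide 1 and 0.356 on slide 2. The study reports 4 sets of experiments, with pools of 5 prosencephalons of the same culture, and does not say which DMSO and DAPT arrays share a set. The labels do not pair the arrays either, and array number was fitted as a block only as an alternative. For arrays, their number limits the precision.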

Additional observations from a re-analysis of the deposited data

How the results depend on the processing

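Calls among the member genes were 0 under every alternative run, and the lowest adjusted p of their brightest probes was 0.144 (normexp). The planned correction on mean spot signals was not run, since the deposited arrays do not hold those signals. Median spot signals were used in their place, an alternative chosen after seeing the data (normexp). Calls over all probes, 42, became 17 (3 higher, 14 lower) under normexp, 13 with no filter, 140 with slide as a block, 191 with array number as a replicate block (121 higher, 70 lower) and 80 with array weights, and ranged from 11 (without DAPT array 4) to 39 (without DMSO array 2) when 1 array was left out. Under normexp the median of all probes moved by -0.32 log2, and the members stood at 0.64 (PSEN2), -0.16 (APH1A), -0.50 (NCSTN), -0.79 (ADAM10), -0.58 (ADAM17), -0.77 (NUMB) and -0.95 (MIB1). Then 7 of the 18 member probes had an unadjusted p under 0.05, against 0 in the fit reported. The share of all probes at that threshold under normexp was not counted, so the 7 cannot be read as particular to the members. Directions turned as follows, and the cause was not tested. With array weights APH1A was -0.11, NCSTN 0.0501, ADAM10 0.12, ADAM17 0.18 and NUMB 0.12, and with the mean over probes ADAM10 was 0.0105. On slide 1 alone APH1A was -0.15, NCSTN 0.17, ADAM10 0.0436 and NUMB 0.0414, and on slide 2 alone ADAM17 was 0.0174. With 1 array left out the ranges were -0.0217 to 0.48 for APH1A, 0.14 to 0.35 for PSEN2, -0.13 to 0.0608 for NCSTN, -0.22 to 0.0944 for ADAM10, -0.16 to 0.16 for ADAM17, -0.23 to 0.0437 for NUMB and -0.35 to -0.08 for MIB1. Directions turned without DMSO array 3 (APH1A, NCSTN, ADAM10, ADAM17), DMSO array 4 or DAPT array 1 (NCSTN, ADAM10, ADAM17, NUMB), DAPT array 2 (ADAM17) and DAPT array 4 (NCSTN). PSEN2 stayed above 0 and MIB1 below 0 in all 21 alternatives each.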

Other observations

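For each measured member, the most similar of 74 related genes with a value on every array was found from the 8 arrays after each slide's mean was removed. Pearson's r was highest with RBPJ, the nuclear partner of Notch, for APH1A (0.92) and PSEN2 (0.80). It was highest with EPS15 for NCSTN (0.89), with AP2A2 for ADAM10 (0.92), with EPN2 for ADAM17 (0.83), with SPPL3 for NUMB (0.95) and with TSPAN15 for MIB1 (0.95). EPS15, AP2A2 and EPN2 act in clathrin-mediated endocytosis, and TSPAN15 is a tetraspanin that associates with ADAM10. The 8 points share their slides and the normalization of each array, and with 74 candidates a high value is easily found.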
